A study of Homo sapiens with 6 samples.

Results

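The 43 genes described here encode proteins that carry a cell from the end of DNA replication through mitosis. They were chosen by name from known function and not by a threshold on the measured values, but with earlier results of these data known. They were measured in the human lung adenocarcinoma line A549 on Illumina Human HT-12 v4 bead arrays. All 43 were represented among the 11358 genes tested. The NME2-induced cells had been transfected with pcDNA-NME2-MYC, which carries MYC-tagged NME2, and the control cells with pcDNA-MYC, and RNA was taken from both 48 h later. Each group has 3 arrays, which the submitters call biological replicates. Both groups therefore went through transfection with a pcDNA plasmid. The sources used here do not give the share of cells that took it up or their distribution over the cell cycle.

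Entry into mitosis is driven by CDK1 bound to cyclin B, which WEE1 and PKMYT1 hold in check and CDC25 phosphatases release. Polo-like and Aurora kinases then build the spindle, kinetochores attach chromosomes to it, and the spindle checkpoint holds back the anaphase-promoting complex until every chromosome is attached. The complex, with CDC20, marks securin and the cyclins for destruction, and the cell divides. Many of these genes share a transcription programme. The DREAM complex represses them in resting cells, while the MuvB core with MYBL2 and FOXM1 activates them as cells approach mitosis. A known landmark of their promoters is the cell cycle genes homology region, or CHR, often in the form TTTGAA, with CCAAT boxes bound by NF-Y upstream of it. A549 cells divide in culture. In bulk RNA such as this, fewer cells in G2/M and less RNA per cell cannot be told apart.

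The promoters are shown first because the landmarks named above are strings that can be searched for. RefSeq windows of GRCh38.p14, from 250 bases before to 50 after the annotated start, were at hand for 37 of the 43 genes. The first window listed was taken where a gene has several. Searched on both strands, TTTGAA or its variant TTCGAA occurred in 27 of the 37 windows, or 73%, against 11.5% of the windows of 9184 tested genes. CCAAT occurred in 28, or 75.7%, against 37.4%, and 17 windows held 2 or more CCAAT matches. A CHR form that began between 60 bases before and 20 after the start was found in 20 windows, or 54.1%, against 2.83% of tested genes; these limits were set after the positions had been seen. A match is a string of letters and not a known binding site. No other form of the CHR was searched for. The promoters of 4 genes follow, 5′ to 3′ on the strand of the gene, with the matches in capitals on whichever strand they lie. Read from the other strand TTTGAA becomes TTCAAA, while a CCAAT box becomes ATTGG. MKI67, HMMR and CCNB2 are shown as members with lower means in NME2-induced cells, and CDCA8 as a member of like promoter with a higher mean. The windows are chr10:128126374-128126673 on the minus strand for MKI67, and, on the plus strand, chr5:163460382-163460681 for HMMR, chr15:59104896-59105195 for CCNB2 and chr1:37692266-37692565 for CDCA8.
MKI67: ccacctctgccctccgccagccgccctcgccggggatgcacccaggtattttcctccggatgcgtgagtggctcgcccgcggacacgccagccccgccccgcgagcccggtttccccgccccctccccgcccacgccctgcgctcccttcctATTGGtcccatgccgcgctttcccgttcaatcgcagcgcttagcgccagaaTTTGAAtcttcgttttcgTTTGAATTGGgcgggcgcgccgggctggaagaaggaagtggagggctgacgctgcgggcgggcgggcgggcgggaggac
HMMR: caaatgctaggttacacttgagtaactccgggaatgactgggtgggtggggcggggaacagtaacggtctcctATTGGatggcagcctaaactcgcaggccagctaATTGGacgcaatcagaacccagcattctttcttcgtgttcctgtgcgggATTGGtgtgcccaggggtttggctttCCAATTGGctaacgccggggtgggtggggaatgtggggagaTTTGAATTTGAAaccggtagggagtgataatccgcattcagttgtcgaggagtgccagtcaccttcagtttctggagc
CCNB2: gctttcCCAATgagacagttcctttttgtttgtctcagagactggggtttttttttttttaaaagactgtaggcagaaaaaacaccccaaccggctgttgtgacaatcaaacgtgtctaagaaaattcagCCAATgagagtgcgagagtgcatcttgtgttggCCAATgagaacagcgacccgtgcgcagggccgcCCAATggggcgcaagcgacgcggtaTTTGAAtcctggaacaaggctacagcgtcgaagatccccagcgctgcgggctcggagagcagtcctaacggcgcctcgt
CDCA8: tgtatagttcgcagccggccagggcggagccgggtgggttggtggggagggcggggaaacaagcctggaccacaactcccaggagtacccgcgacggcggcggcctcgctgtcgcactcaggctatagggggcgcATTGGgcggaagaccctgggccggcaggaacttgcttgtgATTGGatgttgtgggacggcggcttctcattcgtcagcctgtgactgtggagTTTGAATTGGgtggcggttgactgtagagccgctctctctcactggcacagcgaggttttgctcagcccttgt

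In HMMR a pair of TTTGAA matches lies head to tail, beginning 28 and 22 bases before the start, downstream of 5 CCAAT matches, of which a pair overlaps on opposite strands. CCNB2 has a single TTTGAA match, which begins 29 bases before the start, and its CCAAT matches begin 54, 87, 120 and 244 bases before it. The TTTGAA match of CDCA8 begins 23 bases before the start and shares its last A with ATTGG, and the second match of MKI67, which begins 29 bases before the start, is joined to ATTGG in the same way. The windows of CDC25B, CDC25C, CENPE and KIF2C held none of the 3 strings. Only the first window listed for a gene was searched, so any other annotated start was not covered.

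Of the 47231 probes, 19043 to 20726 passed detection on each array. The probe used for NME2 was at 8.48, 8.29 and 8.28 in NME2-induced cells, against 7.34, 7.32 and 7.28 in control cells (log2 fold change 1.04, adjusted p = 0.00642 by limma). The probe used for the readthrough NME1-NME2 was at 10.69, 10.62 and 10.76 in NME2-induced cells, against 12.79, 12.63 and 12.61 in control cells (log2 fold change -1.99, adjusted p = 1.54e-04 by limma). These transcripts share sequence, and their probes gave opposite directions. Groups are named as in the labels. Of 10 genes taken as marks of A549 and epithelial identity, 8 were detected, among them KRT8, KRT19, EPCAM and the aldo-keto reductase AKR1B10, whereas KRT18 was detected on 1 array and AKR1C1 on 0 arrays. Among the 8, CDH1 had a higher mean in NME2-induced cells (0.40, SE 0.10) and KRT19 a lower one (-0.23, SE 0.09), both without overlap and at an unadjusted p under 0.05. Of 12 markers of other cell types, 5 were detected on at least 3 arrays (CD14, COL1A1, COL1A2, LUM and ALB) and 4 on none. The mean log2 intensity of the 12 lay between 4.98 and 5.11 on NME2-induced arrays and between 5.05 and 5.09 on control arrays. CD14 was at 6.77, 6.74 and 6.88 in NME2-induced cells, against 6.38, 6.63 and 6.70 in control cells, without overlap. The part of these markers in the results below was not tested. The blood cell and endothelial markers PTPRC, CD3E, PECAM1, VWF and CDH5 were detected on 1 array at most. The array of NME2-induced replicate 3 stood farthest out among the NME2-induced arrays on the first principal component, at 16.4 against 5.62 and 8.02 for the others.

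As a group, the mitotic genes leaned lower in NME2-induced cells, by small amounts, and no member passed the threshold over all genes. By limma, 0 of 43 members had an adjusted p under 0.05, where 0.247% of all genes did, 0.158% higher and 0.088% lower, and the smallest adjusted p of a member was 0.162. The methods' t-test likewise left 0 members after Benjamini-Hochberg adjustment. The log2 fold change was below 0 for 31 of the 43, or 72.1%, where the background over all genes was 49.7%. The median was -0.11 for the members and 0.00 for all genes tested, and the quartiles of the members were -0.19 and 0.04. In 7 members the mean was lower at an unadjusted p under 0.05, or 16.3%, against a background of 7.17% of all genes. Another 4 were higher, or 9.3%, close to the background of 7.3%. The groups did not overlap in 10 members that were lower, or 23.3% against 10.7% of all genes, and in 6 that were higher, or 14% against 11.3%. All members were read on the same 6 arrays, so these shares describe the list and carry no test.

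**Figure D1:**
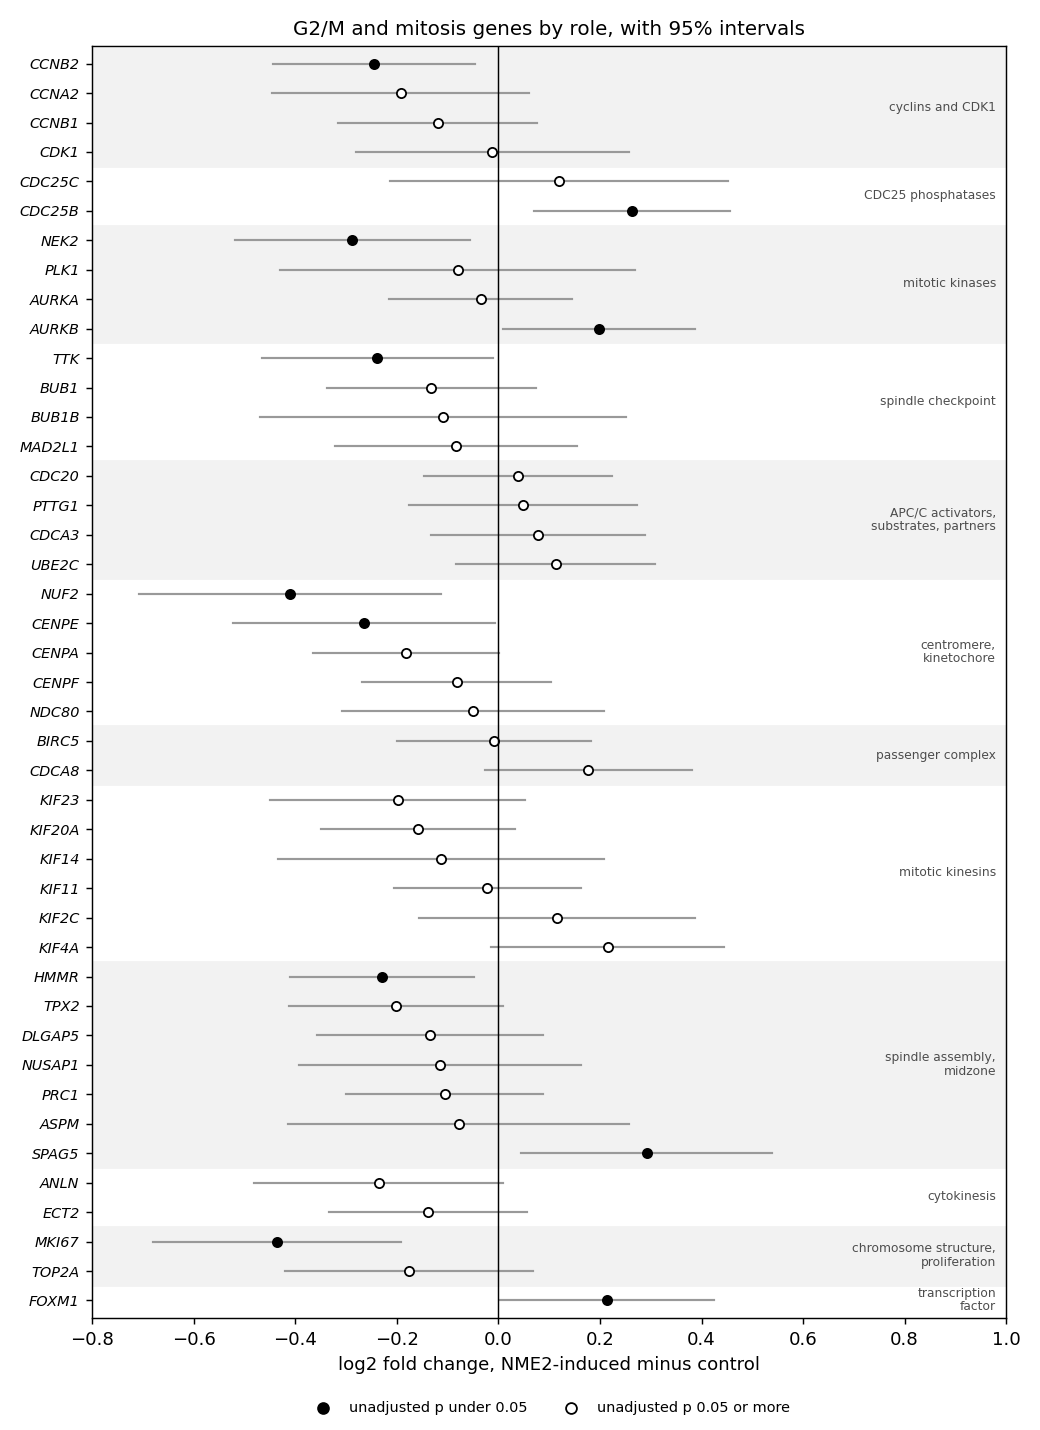
Log2 fold change of each of the 43 genes, NME2-induced minus control, grouped by role; bars are 95% intervals of the limma fit with 3 arrays per group. Filled points mark the 11 genes with an unadjusted p under 0.05, 7 of them left of 0 and 4 right of it, and none passed after adjustment over all genes.

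Over all 43 members, the 95% intervals of the log2 fold change lay between -0.71 and 0.54 on the scale used, whose offset of 16 shrinks the change of dim probes. These limits depend on that scale, since MKI67, whose signal was low, was at -0.69 without further background correction. For 38 members the whole interval lay within 0.5 on the log2 scale on either side of 0. The SD within a group of 3 arrays was between 0.01 and 0.29 among the members, with a median of 0.09 in NME2-induced cells and of 0.08 in control cells. It was larger in NME2-induced cells for 25 of the 43, or 58.1%, and for 54.5% of all genes.

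Cyclins and their kinase all had lower means in NME2-induced cells, with the most distinct separation in cyclin B2. CCNB2, a B-type cyclin that activates CDK1, was at 9.45, 9.57 and 9.53 in NME2-induced cells, against 9.68, 9.74 and 9.86 in control cells. Each NME2-induced array lay below each control array, a 1.19-fold lower signal (log2 fold change -0.24 with SE 0.09, adjusted p = 0.276 by limma). CCNB1, the principal mitotic cyclin, was at 9.11, 9.22 and 9.09 in NME2-induced cells, against 9.35, 9.19 and 9.24 in control cells, with groups that overlapped (log2 fold change -0.12 with SE 0.08, adjusted p = 0.546 by limma). CCNA2, the cyclin of S phase and G2, was at 8.45, 8.35 and 8.19 in NME2-induced cells, against 8.57, 8.36 and 8.63 in control cells. Its groups overlapped too, since control replicate 2 lay level with the NME2-induced arrays (log2 fold change -0.19 with SE 0.11, adjusted p = 0.453 by limma). The kinase itself, CDK1, was at 10.00, 9.96 and 9.62 in NME2-induced cells, against 9.83, 9.87 and 9.92 in control cells. Its lowest array was that of NME2-induced replicate 3 and its highest was that of NME2-induced replicate 1 (log2 fold change -0.01 with SE 0.12, adjusted p = 0.97 by limma), with a 95% interval from -0.28 to 0.26. The sign for CDK1 turned to 0.11 without NME2-induced replicate 3 and to 0.01 without control replicate 3.

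Both CDC25 phosphatases among the members had higher means in NME2-induced cells by the probe used, without overlap only for CDC25B. CDC25B, which starts the activation of CDK1-cyclin B at the centrosome, was at 11.84, 11.78 and 11.92 in NME2-induced cells, against 11.66, 11.57 and 11.52 in control cells. All NME2-induced arrays were above all control arrays, a 1.2-fold higher signal (log2 fold change 0.26 with SE 0.08, adjusted p = 0.232 by limma). CDC25B was the member whose call changed with the variance model: once eBayes fitted a mean-variance trend robustly, its adjusted p by limma was 0.0264, and over the alternatives it lay between 0.0264 and 0.447. CDC25C had a log2 fold change of 0.12 (SE 0.14) by the probe used. Its values lay between 6.59 and 6.68 in NME2-induced cells and between 6.17 and 6.71 in control cells, so its groups overlapped. With 1 array left out the log2 fold change of CDC25C reached -0.05, and its further probes were at 0.24 and -0.12.

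Among the mitotic kinases, NEK2 and AURKB lay on opposite sides of 0. NEK2, which separates the centrosomes, was at 9.21, 9.20 and 8.98 in NME2-induced cells, against 9.52, 9.32 and 9.41 in control cells, a 1.22-fold lower signal without overlap (log2 fold change -0.29 with SE 0.10, adjusted p = 0.273 by limma). AURKB, the catalytic subunit of the chromosomal passenger complex, was at 9.61, 9.70 and 9.59 in NME2-induced cells, against 9.36, 9.46 and 9.49 in control cells, a 1.15-fold higher signal without overlap (log2 fold change 0.20 with SE 0.08, adjusted p = 0.331 by limma). PLK1, the polo-like kinase needed for spindle formation and mitotic exit, was at 6.49, 6.15 and 6.52 in NME2-induced cells, against 6.32, 6.75 and 6.34 in control cells. Its groups overlapped widely (log2 fold change -0.08 with SE 0.15, adjusted p = 0.833 by limma), and its sign turned to 0.04 without NME2-induced replicate 2 and to 0.06 without control replicate 2. AURKA, the centrosomal Aurora kinase, was at 10.23, 10.23 and 10.32 in NME2-induced cells, against 10.26, 10.27 and 10.35 in control cells, and the log2 fold change was -0.04 (SE 0.08), with a 95% interval from -0.22 to 0.15.

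**Figure D2:**
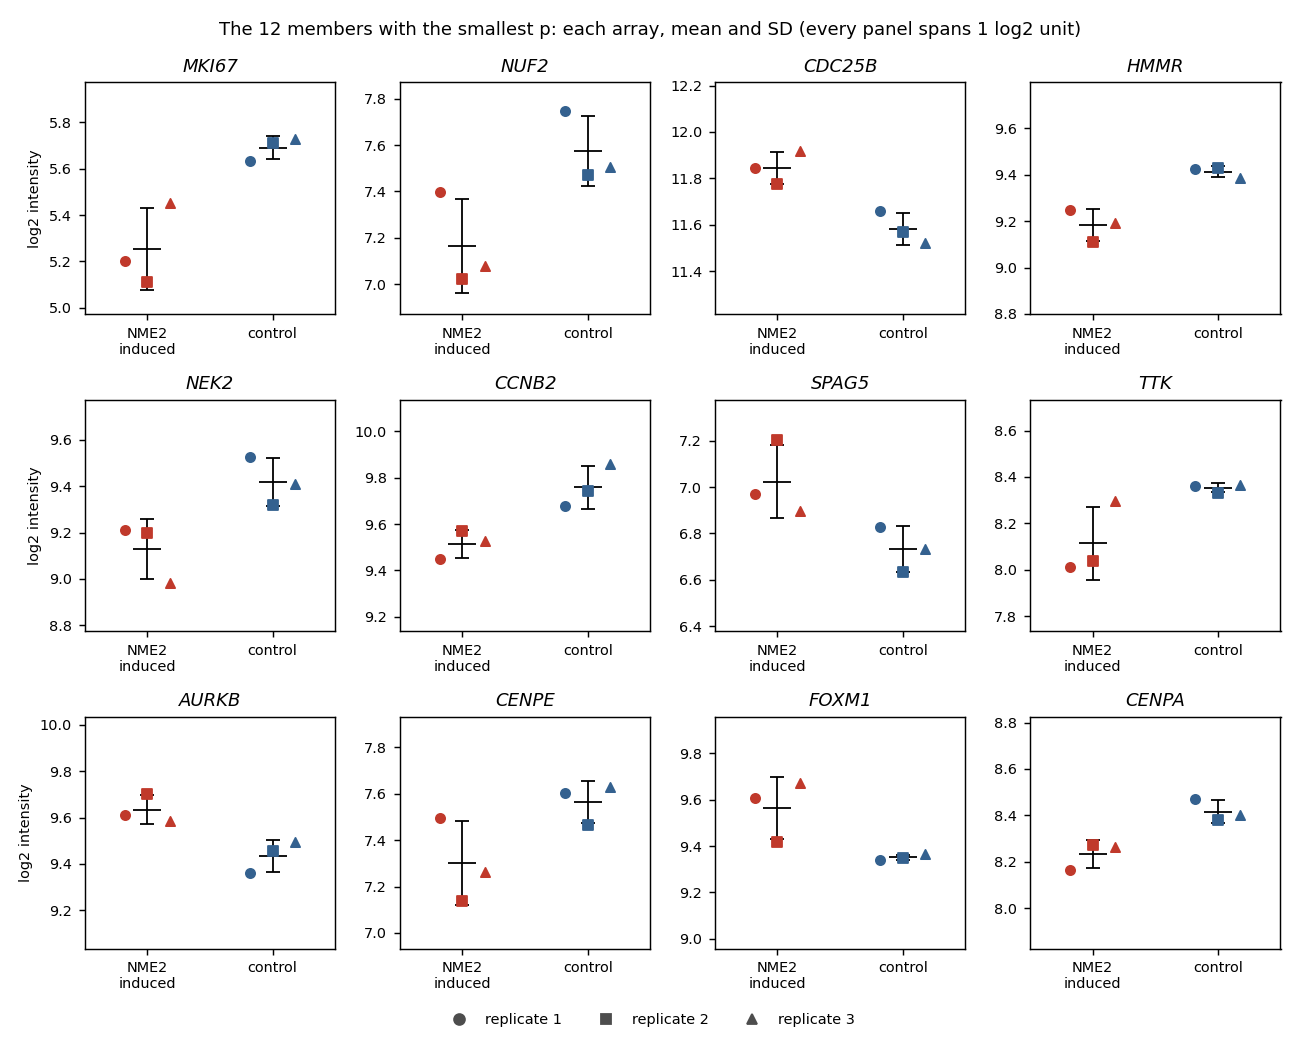
Log2 intensity of the 12 genes with the smallest p on each of 6 arrays; points are arrays with a marker for each replicate number, and bars are mean and SD of 3 arrays, with NME2-induced cells left and control cells right. CDC25B, SPAG5, AURKB and FOXM1 are higher in NME2-induced cells, the other 8 genes are lower, and the groups overlap only in CENPE.

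The 5 centromere and kinetochore genes all had lower means in NME2-induced cells, with a median of -0.18. NUF2, which with NDC80 forms the microtubule-binding arm of the kinetochore, was at 7.40, 7.02 and 7.08 in NME2-induced cells, against 7.75, 7.47 and 7.51 in control cells. The control arrays were all above the NME2-induced ones, although NME2-induced replicate 1 came close to control replicate 2. The signal was 1.33-fold lower (log2 fold change -0.41 with SE 0.13, adjusted p = 0.23 by limma). Its partner NDC80 had a log2 fold change of -0.05 (SE 0.11), with overlapping groups. CENPE, the kinesin that carries chromosomes to the spindle equator, was at 7.50, 7.14 and 7.26 in NME2-induced cells, against 7.60, 7.46 and 7.63 in control cells, and here NME2-induced replicate 1 reached above control replicate 2 (log2 fold change -0.27 with SE 0.11, adjusted p = 0.335 by limma). CENPA, the histone H3 variant that marks the centromere, was at 8.16, 8.27 and 8.26 in NME2-induced cells, against 8.47, 8.38 and 8.40 in control cells, with no overlap (log2 fold change -0.18 with SE 0.08, adjusted p = 0.349 by limma). CENPF, a large protein of the outer kinetochore, was at -0.08 (SE 0.08).

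The 4 spindle checkpoint genes had means below control, and only TTK had an unadjusted p under 0.05. TTK, the kinase that starts checkpoint signalling, was at 8.01, 8.04 and 8.30 in NME2-induced cells, against 8.36, 8.33 and 8.37 in control cells. The NME2-induced arrays were lower throughout, but replicate 3 came close to the lowest control array (log2 fold change -0.24 with SE 0.10, adjusted p = 0.328 by limma). The log2 fold changes were -0.13 (SE 0.09) for the checkpoint kinase BUB1, -0.11 (SE 0.15) for its relative BUB1B and -0.08 (SE 0.10) for MAD2L1, which restrains CDC20. All 3 had overlapping groups, and BUB1B and MAD2L1 turned above 0 in at least 1 fit with an array left out, to 0.022 and 0.0095 at most.

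By the probes used, the 4 genes placed with the anaphase-promoting complex had means 0.04 to 0.11 above control on the log2 scale, all with overlapping groups. They were its activator CDC20 (0.04, SE 0.08), the ubiquitin-conjugating enzyme UBE2C (0.11, SE 0.08), securin or PTTG1 (0.05, SE 0.10) and CDCA3 (0.08, SE 0.09), which is known to promote the turnover of WEE1. CDC20 and PTTG1 turned below 0 in at least 1 fit with an array left out. Second probes of UBE2C and PTTG1 were at -0.15 (SE 0.12) and -0.02 (SE 0.09).

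Genes of the spindle and its motors lay on both sides. HMMR, a microtubule-associated protein of the spindle poles, was at 9.25, 9.11 and 9.19 in NME2-induced cells, against 9.42, 9.43 and 9.39 in control cells, a 1.17-fold lower signal with the groups well apart (log2 fold change -0.23 with SE 0.08, adjusted p = 0.262 by limma). SPAG5, or astrin, which stabilizes kinetochore fibres, was at 6.97, 7.20 and 6.90 in NME2-induced cells, against 6.83, 6.63 and 6.73 in control cells, a 1.22-fold higher signal without overlap (log2 fold change 0.29 with SE 0.11, adjusted p = 0.289 by limma). TPX2, the activator of AURKA at the spindle, had a log2 fold change of -0.20 (SE 0.09) without overlap. DLGAP5, NUSAP1, PRC1 and ASPM, which bundle or anchor spindle microtubules, lay between -0.13 and -0.08 with overlapping groups. Of the kinesins, KIF20A at -0.16 (SE 0.08) was lower without overlap and the chromokinesin KIF4A at 0.21 (SE 0.10) higher without overlap. KIF23, the motor of the central spindle, was at -0.20 (SE 0.11), KIF14 at -0.11 (SE 0.14) and the spindle-separating KIF11 at -0.02 (SE 0.08), while the microtubule depolymerase KIF2C was at 0.12 (SE 0.12). These 4 had overlapping groups.

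In the chromosomal passenger complex, which corrects faulty attachments, the catalytic subunit AURKB had the higher mean given above, and borealin, or CDCA8, had a log2 fold change of 0.18 (SE 0.09) without overlap. BIRC5, or survivin, was at 9.49, 9.51 and 9.54 in NME2-induced cells, against 9.45, 9.63 and 9.50 in control cells. By this probe the groups overlapped and the log2 fold change was -0.01 (SE 0.08), with a 95% interval from -0.20 to 0.18. INCENP, the scaffold of the same complex, was read as part of another list and was at 5.97, 6.17 and 5.75 in NME2-induced cells, against 6.33, 6.68 and 6.49 in control cells (log2 fold change -0.54 with SE 0.14, adjusted p = 0.173 by limma). By the probes used, the 4 subunits thus spanned both directions, from -0.54 to 0.20, while a second probe of BIRC5 was at 0.40 (SE 0.11).

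MKI67, the nuclear proliferation antigen that coats mitotic chromosomes, was at 5.20, 5.11 and 5.45 in NME2-induced cells, against 5.63, 5.71 and 5.73 in control cells, a 1.35-fold lower signal. NME2-induced replicate 3 lay nearest to control, and no arrays overlapped (log2 fold change -0.44 with SE 0.11, adjusted p = 0.162 by limma). The size of the difference varied with the scale, from -0.69 without further background correction to -0.21 with normexp at offset 50, where NUF2 was at -0.32. MKI67 and NUF2 kept an unadjusted p under 0.05 in all 6 fits with 1 array left out, CDC25B in 5, NEK2 and CCNB2 in 4, and HMMR and SPAG5 in 3. CENPE kept it in 2, TTK and FOXM1 in 1 and AURKB in 0. These members were picked for a small p on the same arrays, which these fits largely share. The matching counts over all genes are not given here. TOP2A, the topoisomerase that untangles sister chromatids, was at 11.30, 11.13 and 10.93 in NME2-induced cells, against 11.27, 11.32 and 11.30 in control cells. Its control arrays lay close together, the NME2-induced arrays spread from below to the control range, and the groups overlapped (log2 fold change -0.18 with SE 0.11, adjusted p = 0.478 by limma). Without NME2-induced replicate 3 the log2 fold change of TOP2A was -0.08, and without NME2-induced replicate 1 it was -0.27. For cytokinesis, the scaffold ANLN had a log2 fold change of -0.24 (SE 0.11) with overlap, and ECT2, the exchange factor for RhoA, one of -0.14 (SE 0.08) without overlap.

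FOXM1, the factor that drives many of the genes above, was on the higher side. It was at 9.61, 9.42 and 9.67 in NME2-induced cells, against 9.34, 9.35 and 9.36 in control cells, a 1.16-fold higher signal, with NME2-induced replicate 2 closest to the control arrays (log2 fold change 0.21 with SE 0.09, adjusted p = 0.341 by limma). A second detected probe of FOXM1 had a log2 fold change of 0.16 (SE 0.11). A list of the DREAM and MuvB complexes also held the subunits of NF-Y and the kinase DYRK1A, and 0 of its 16 genes passed the threshold. At an unadjusted p under 0.05, 2 had higher and 3 had lower means, or 12.5% and 18.8% against 7.3% and 7.17% of all genes. The higher ones included E2F4, the E2F of the repressive complex, at 0.25 (SE 0.08). The lower ones included TFDP2, a dimerization partner of E2F proteins, at -0.30 (SE 0.10) and NFYA, a subunit of the CCAAT-binding NF-Y, at -0.37 (SE 0.15). LIN52 at 0.39 (SE 0.16) and LIN54 at -0.21 (SE 0.09) made up the rest of these counts. MYBL2, named above as an activator with FOXM1, was at -0.39 (SE 0.22). Its groups overlapped, and it was detected on 2 of the NME2-induced arrays. Set by promoter, the 27 members with TTTGAA or TTCGAA had a median log2 fold change of -0.11, with 22 below 0 and 5 above. The 10 whose window held neither string had a median of -0.04, with 5 below 0 and 5 above. For CCAAT the medians were -0.11 over 28 members with a match and -0.05 over 9 without. These differences were not tested. Other forms of the CHR and other annotated starts were not searched, so the grouping depends on the strings and windows used.

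For 16 members more than 1 probe was detected, which gives a second reading of the same RNA. Among the 17 further probes, 11 had a log2 fold change below 0, the median was -0.08, and 10 had the sign of the probe used. Over all 60 detected probes of the members, 0 passed limma's threshold adjusted over the 19394 detected probes. CENPA was lower by both probes, the second at 6.94, 7.06 and 7.00 in NME2-induced cells, against 7.34, 7.40 and 7.09 in control cells (log2 fold change -0.28, SE 0.11). The second probe of NEK2 was at -0.23 (SE 0.15), that of KIF23 at -0.26 (SE 0.13) and that of NUSAP1 at -0.20 (SE 0.09), each on the side of the first. The widest disagreement was in BIRC5. Its dimmer probe was at 6.44, 6.22 and 6.41 in NME2-induced cells, against 5.83, 6.12 and 5.93 in control cells, without overlap, which gave 0.40 on the log2 scale with SE 0.11 (adjusted p = 0.212 by limma over all detected probes). CENPE and UBE2C also split, with second probes at 0.08 (SE 0.11) and -0.15 (SE 0.12), and the mean of both CENPE probes was at -0.09. The second probe of CDK1 was at -0.15 (SE 0.13), that of DLGAP5 at -0.14 (SE 0.09) and that of HMMR at -0.08 (SE 0.10), so that HMMR was nearer 0 by it than by the first. Second probes of AURKA, KIF11, MAD2L1 and PTTG1 lay between -0.03 and 0.05. CDC25C had 2 further probes, at 0.24 (SE 0.13) and -0.12 (SE 0.20). For NUF2, the 2 remaining probes were detected on 2 arrays and on 0 arrays, so its value rests on 1 probe.

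**Figure D3:**
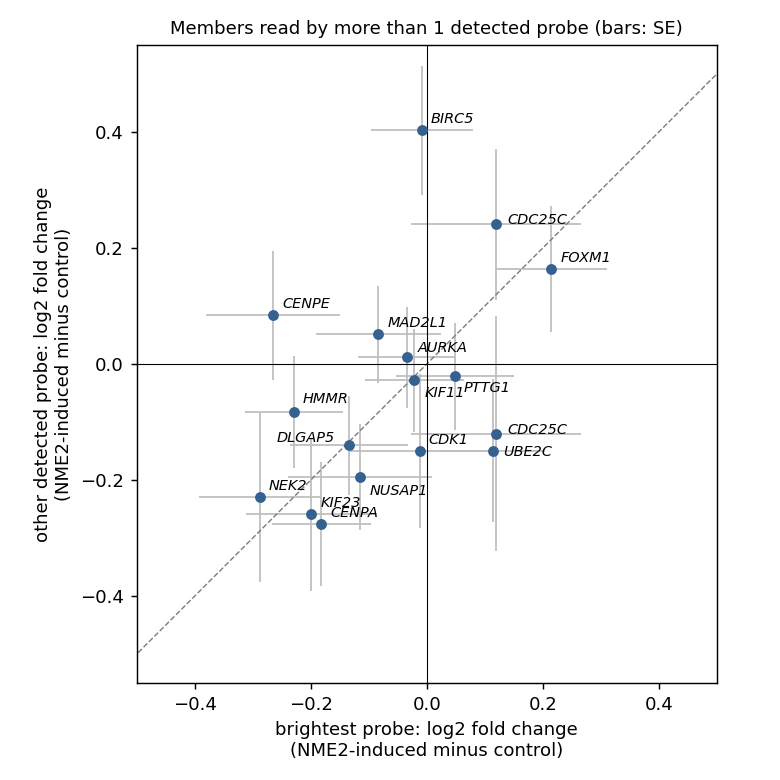
Log2 fold change, NME2-induced minus control, by the brightest probe of a gene (horizontal) and by each other detected probe (vertical), for 16 genes and 17 further probes; bars are SE and the dashed line marks equality. BIRC5 lies farthest from the line, at -0.01 by the brightest probe and 0.40 by the other, while CENPA, NEK2 and KIF23 lie below 0 on both axes.

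Seen by array, the lean was carried unevenly. Relative to the mean of all 6 arrays for each gene, the median over the 43 members was 0.00, -0.04 and -0.03 on the arrays of NME2-induced replicates 1, 2 and 3, against 0.04, 0.00 and 0.08 on those of control replicates 1, 2 and 3. NME2-induced replicate 1 and control replicate 2 were thus nearly level, and control replicate 3 was highest. The same median over all genes lay between -0.004 and 0.008 on every array. Control replicate 3 held the highest value of 15 members and the lowest of 3, and NME2-induced replicate 3 the lowest of 11 and the highest of 3. With 1 array left out, the median log2 fold change lay between -0.13 and -0.07, the value nearest 0 being that without NME2-induced replicate 2. Between 28 and 32 members were then below 0. For 12 members, or 27.9%, the sign turned in at least 1 of these 6 fits, against 35.1% of all genes. Besides CDK1, PLK1 and BIRC5 these were CDC25C, BUB1B, MAD2L1, CDC20, PTTG1, NDC80, KIF11, NUSAP1 and ASPM. Without NME2-induced replicate 3, the outlying array, the median was -0.08, with 28 members below 0, where 49.4% of all genes were. In that fit 5 members were lower and 3 higher at an unadjusted p under 0.05, against 5.85% and 6.36% of all genes. The number of lower members at an unadjusted p under 0.05 was 4 without control replicate 1, where 5.62% of all genes were lower, and 4 without control replicate 3, where 5.34% were. The number of higher ones was 2 without NME2-induced replicate 1, NME2-induced replicate 2 or control replicate 1, 1 without control replicate 2 and 0 without control replicate 3. In those 5 fits between 5.54% and 7.17% of all genes were higher.

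**Figure D4:**
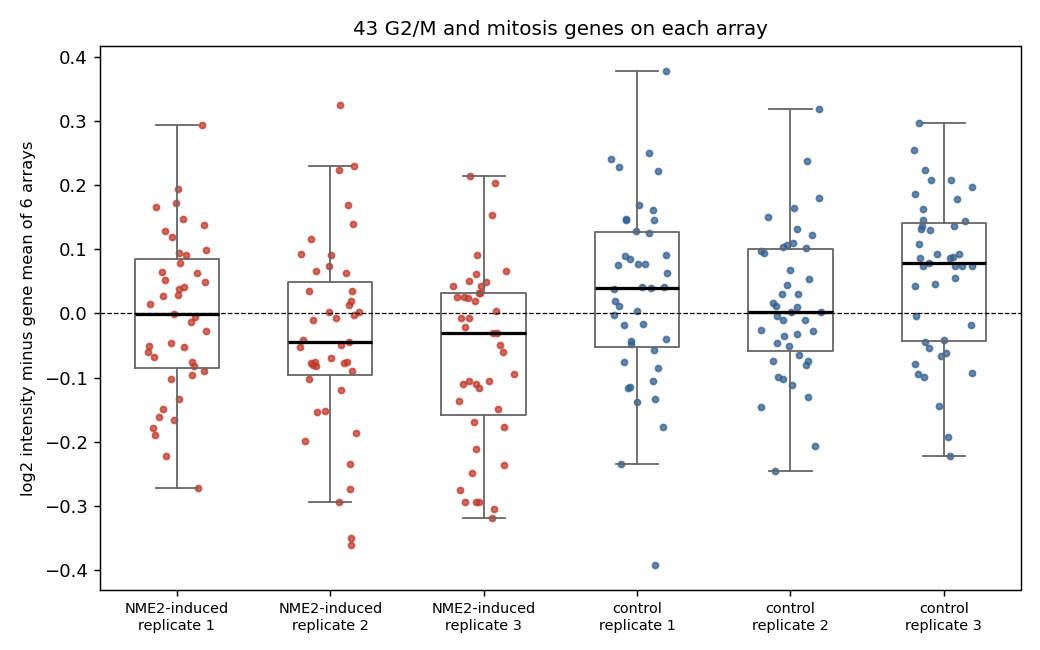
Log2 intensity of the 43 genes on each array minus the mean of the gene over 6 arrays; points are genes, boxes span the quartiles with the median as a line, whiskers reach the farthest point within 1.5 box lengths, and NME2-induced arrays are red and control arrays blue. The medians lie between -0.04 and 0.00 on NME2-induced arrays and between 0.00 and 0.08 on control arrays, and the points of all arrays overlap.

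Other genes of mitosis, taken from lists chosen by function with earlier results of these data known, gave the setting. None passed the threshold. Of 34 other kinetochore and centromere genes, 23 had a log2 fold change below 0, with a median of -0.05, and 3 had lower and 0 had higher means at an unadjusted p under 0.05. The 3 are 8.82% of the list, near the 7.17% of all genes. SGO2, a shugoshin that protects centromeric cohesin, was at -0.33 (SE 0.09), CENPC at -0.32 (SE 0.11) and CENPT at -0.24 (SE 0.09). Condensin and cohesin genes had a median of -0.11 over 17, with 9 below 0. At an unadjusted p under 0.05, 4 were lower and 2 higher, or 23.5% and 11.8% against 7.17% and 7.3% of all genes. The condensin subunit SMC4 at -0.33 (SE 0.09) and the cohesin subunits SMC3 at -0.27 (SE 0.08) and RAD21 at -0.26 (SE 0.09) lay lower without overlap. The higher ones were separase, or ESPL1, at 0.27 (SE 0.11) without overlap and the condensin subunit NCAPH2 at 0.40 (SE 0.16) with overlap. Subunits and regulators of the anaphase-promoting complex had a median of -0.06 over 14, 11 of them below 0, with CDC16 at -0.34 (SE 0.09).

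Regulators of mitotic entry and exit had a median of -0.05 over 28 genes, of which 6 had lower and 0 had higher means at an unadjusted p under 0.05, or 21.4% lower against 7.17% of all genes. BORA, which lets AURKA activate PLK1, was at 6.68, 6.85 and 6.76 in NME2-induced cells, against 7.32, 7.00 and 7.14 in control cells (log2 fold change -0.39 with SE 0.10, adjusted p = 0.186 by limma). CCNH, the cyclin of the CDK-activating kinase, was at -0.31 (SE 0.09), and DEPDC1 at -0.33 (SE 0.10). PKMYT1 and WEE1, the kinases that hold CDK1 inactive, were at -0.47 (SE 0.16) and -0.21 (SE 0.09). These kinases were named after their values were seen. In the whole list 15 genes lay below 0 and 13 above. Among 28 other spindle, kinesin and cytokinesis genes, 15 were below 0, the median was -0.01, and 4 were lower and 0 higher at that threshold, or 14.3% lower against the same 7.17%. They included INCENP and SEPTIN9 at -0.33 (SE 0.08), a septin of the cleavage furrow, together with RHOA at -0.18 (SE 0.08).

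The genes that open the cycle differed among themselves. Over 43 genes of G1/S and of DNA replication the median was -0.02, with 24 below 0, and 6 had lower and 1 had a higher mean at an unadjusted p under 0.05, or 14% and 2.33% against 7.17% and 7.3% of all genes. Those with the smallest p were the ribonucleotide reductase subunit RRM2 at -0.61 (SE 0.11), the helicase subunit MCM2 at 0.44 (SE 0.10) and the primase subunit PRIM1 at -0.27 (SE 0.10). The difference between this list and the mitotic genes was not tested. Of 10 CDK inhibitors and genes of growth arrest, 0 passed, the median was -0.04, and CDKN1A, or p21, was at -0.02 (SE 0.08). The retinoblastoma gene RB1, at -0.31 (SE 0.08), was the 1 gene of that list with an unadjusted p under 0.05.

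**Figure D5:**
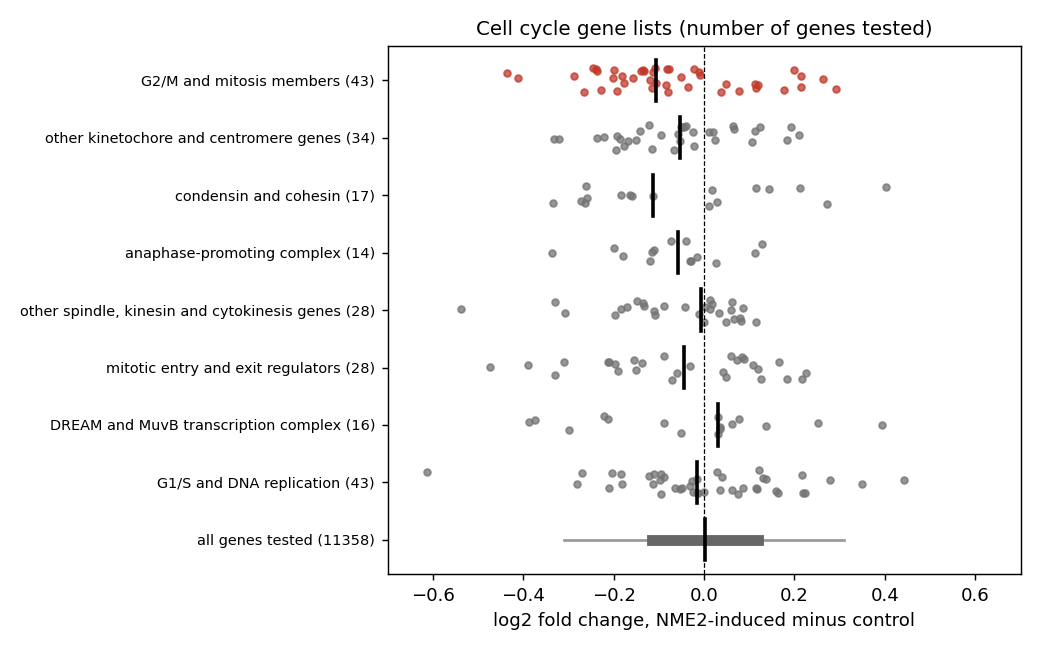
Log2 fold change, NME2-induced minus control, of each tested gene in 8 cell cycle lists, with the number of genes in brackets; points are genes and black bars are medians, and for all 11358 genes the thick bar spans the quartiles and the thin bar runs from the 5th to the 95th percentile. The medians lie at -0.11 for the mitotic members and for condensin and cohesin, and between -0.06 and 0.03 for the other 6 lists.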

How the data were processed

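RNA of 6 samples was read on 1-colour bead arrays. The authors exported intensities and a detection p-value per probe with BeadStudio, which the submitters' processing notes name without a version. The deposited intensities are linear; the 2 tables were identical and all 6 arrays shared nearly equal quantiles, with medians between 7.54 and 7.57 and values below 0, so the authors appear to have background-subtracted and quantile-normalized them. The settings are not given in the sources used here.

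limma 3.58.1 (R 4.3.3) was used throughout. Its function neqc estimated the background from the detection p-values, added an offset of 16, quantile-normalized and took log2. Background and quantile steps may thus have been applied a second time, and alternatives left each out. Probes with detection p under 0.05 on at least 3 of 6 arrays were kept (19394). In the platform annotation 30113 probes carry 1 symbol, 8 carry several and 17110 carry none; 0 symbols changed when updated by gene identifier. Each gene took its probe of highest mean over 6 arrays. Groups were compared with lmFit and eBayes, 2-sided, with Benjamini-Hochberg adjustment over 11358 genes and a threshold of 0.05. The procedure was tested on simulated data. SE is moderated, n is 3 arrays per group, and the number of arrays limits the precision. Folds on this scale understate the change of dim probes.

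The members and the 10 other lists were chosen with earlier results of these data known. Every member is named; values by array are given for the 12 with the smallest p and for CDK1, CCNB1, CCNA2, PLK1, AURKA, TOP2A, BIRC5 and FOXM1, and up to 3 genes of smallest p are named for each other list. ESPL1, NCAPH2, MYBL2, LIN52, LIN54, PKMYT1, WEE1 and CDKN1A were added to these after their values were seen. Every signal column was mapped to a sample. The alternatives varied background correction, offset, normalization, detection filter, probe summary, variance model, test, replicate block and each array left out. The p-values set the group difference against the variation between these arrays, moderated over genes. The arrays are labelled biological replicates without further detail, so the sources of that variation are not known.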

Additional observations from a re-analysis of the deposited data

How the results depend on the processing

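With a robust mean-variance trend in eBayes, 1 member passed limma's adjusted threshold, CDC25B at 0.26, 12 members were lower at an unadjusted p under 0.05, against 8.53% of all genes, and 300 genes passed in all; under every other alternative run, 0 members passed. The 28 genes past the threshold became 148 where normexp was fitted without control probes at offset 50, 123 for neqc at that offset, 69 with detection on all 6 arrays, 17 without a filter on dim probes and 13 with the methods' t-test. The cause was not tested. With the replicate block, 1 member was higher and 6 were lower at an unadjusted p under 0.05, against 6.46% and 6.27% of all genes, and 5 genes passed in all. Same-numbered arrays did not deviate together (correlations of 0.03, -0.04 and -0.04 across genes), so the numbers were not taken as pairs. With 1 array left out, the members at an unadjusted p under 0.05 numbered 4 to 8 lower and 0 to 3 higher, the median of the members was between -0.13 and -0.065, and 6 to 11 genes passed in all. The median stayed below 0 under all alternatives and was -0.08 in both settings with offset 50. Among the 19 members with values by array, 297 of 304 alternative values kept their direction, but part of the 304 could not turn. The replicate block, the variance model and both detection filters left every log2 fold change of these members unchanged. So did the mean of probes where 1 probe was detected. The series matrix values repeated those without further background correction. The 7 values that turned belonged to BIRC5, CDK1 and PLK1. BIRC5 was at 0.20 by the mean of its probes and between -0.048 and 0.042 with 1 array left out. With 1 array left out, CDK1 lay between -0.085 and 0.11 and PLK1 between -0.15 and 0.059. With 1 array left out the sign turned in 12 of all 43 members, these 3 included. The value of MKI67 ranged from -0.69 without further background correction, and with the series matrix values, to -0.21 with normexp at offset 50. At that offset CDC25B (0.26) was above SPAG5 (0.21), as it was without NME2-induced replicate 2 (0.30 against 0.20). With 3 arrays per group, the precision is limited by their number, and no paired values were used in the report. The second probe of KIF23 was detected on 4 of 6 arrays.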
